A study of Mus musculus with 2 samples.

Results

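Liver X receptors (LXR) are nuclear receptors that sense oxysterols, the oxidised forms of cholesterol, and drive the genes by which a macrophage disposes of cholesterol it has taken up. A macrophage digests lipoproteins in the lysosome, moves the freed cholesterol to other membranes with the Niemann-Pick proteins, stores a part of it as ester and exports the rest through ABC transporters to apolipoprotein particles. Macrophages of fat and of the arterial wall can become loaded with lipid, and this route is well known in both.

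The 10 genes of this route examined here were chosen by name and comprised the receptors Nr1h2 and Nr1h3, the exporters Abca1 and Abcg1, the apolipoproteins Apoe and Apoc2, the ubiquitin ligase Mylip, the esterifying enzyme Soat1, and the lysosomal transporters Npc1 and Npc2. Of these, 9 had a row among the 20330 genes of the table, and the expression of Apoc2 was not analysed here. Adipose tissue macrophages (ATM) had been sorted with F4/80 and CD11b antibodies from visceral fat of C57BL/6 mice after 12 weeks of high-fat diet, and poly(A) RNA was sequenced. The WT library came from hMRP8cre-;Hif-1αfl/fl;ApoE-/- mice and the KO library from hMRP8cre+;Hif-1αfl/fl;ApoE-/- mice, so that both genotypes carried floxed Hif1a alleles and the Apoe knockout, and they differed in the Cre recombinase driven by the human MRP8 (S100A8) promoter in myeloid cells. How many animals stood behind each library was not given in the sources used here, and ages at harvest were not given in the labels. There was 1 library for each genotype, so no difference below has a replicate check, no p-value was computed, and fewer cells of a type cannot be told apart from less RNA per cell.

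The question addressed was how the sterol export program of ATM compared between the libraries of mice with and without the Cre that deletes floxed Hif1a. Values are in FPKM, the fragments assigned to a gene relative to its transcript length and to all mapped fragments, which can be compared between genes because they are divided by transcript length. The change of a gene is the difference of log2(FPKM + 1), KO minus WT, and 3-fold on this scale was taken as the threshold for counting a gene. The depth read from the smallest recurring FPKM step was about 5870000 fragments in WT and 7470000 in KO. Hif1a, the targeted gene, gave 30.4 FPKM in the WT library against 20.97 in KO, a change of -0.52, and the table gives a single value for the whole gene and none for the deleted part.

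Elements in the promoters are shown first, because they are among the sites at which LXR is known to act. The consensus LXR element is a direct repeat spaced by 4 bases, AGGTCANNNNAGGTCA. In 300-base windows of RefSeq promoters (build GRCm38.p6, 250 bases before to 50 after the start site), 8 of the 10 genes had an entry. Abcg1 and Npc1 had none, so their promoters were not searched for any motif. Abca1 was the only one of the 8 with a match on either strand at up to 3 mismatches in the 12 fixed positions. This is a loose search, since 21.9% of all 32851 promoters held such a match. Of 21 other LXR target genes, 16 had an entry and 3 of these a match, among which the lipogenic genes Srebf1 and Fasn held nearly the same element as Abca1 (in Srebf1, in 1 of its 3 annotated promoters). They are shown in the direction of transcription, with the element in capitals on the opposite strand, and in Abca1 also the E-box CACGTG:
Abca1, chr4:53159896-53160055, minus strand: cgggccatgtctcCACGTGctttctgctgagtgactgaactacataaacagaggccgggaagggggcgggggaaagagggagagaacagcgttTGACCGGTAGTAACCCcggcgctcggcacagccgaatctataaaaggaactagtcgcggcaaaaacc
Srebf1, chr11:60210616-60210675, minus strand: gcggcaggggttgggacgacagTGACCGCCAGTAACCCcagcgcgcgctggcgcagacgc
Fasn, chr11:120824735-120824794, minus strand: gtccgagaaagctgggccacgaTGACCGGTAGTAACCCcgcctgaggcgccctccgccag

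Read on its own strand, the element was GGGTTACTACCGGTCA in both Abca1 and Fasn and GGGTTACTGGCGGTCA in Srebf1. The shared form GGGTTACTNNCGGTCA, written down after these sequences were seen, occurred in 3 of 32851 promoters (0.00913%), namely those of Abca1, Fasn and Srebf1. These 3 genes did not differ between the libraries in one direction. Abca1 gave 103.6 FPKM in WT against 77.7 in KO, a change of -0.41. Fasn, the fatty acid synthase, gave 3.79 FPKM in WT against 3.31 in KO, a change of -0.15. Srebf1, which encodes the SREBP-1 regulator of lipid synthesis, gave 7.66 FPKM in WT against 18.4 in KO, a change of 1.16. None of the 3 passed 3-fold.

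HIF-1 binds the core sequences ACGTG and GCGTG, and since Hif1a was the targeted gene these were searched as well, on both strands. By gene, 5 of the 8 with an entry had a match in a promoter, and Nr1h3 and Apoe have several annotated promoters. Counted by promoter, 43.8% of all 32851 had one. In Abca1 the matches lay inside the E-box, which reads as ACGTG on either strand. In Apoc2 there was 1 match. The matches of Mylip, Soat1 and Npc2 are shown in capitals, since these are the other measured members with a match, and only bases before the start site are printed:
Mylip, chr13:45389644-45389741, plus strand: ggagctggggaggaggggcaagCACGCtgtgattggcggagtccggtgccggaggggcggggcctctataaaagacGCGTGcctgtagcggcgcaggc
Soat1, chr1:156474368-156474416, minus strand: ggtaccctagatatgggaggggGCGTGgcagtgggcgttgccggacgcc
Npc2, chr12:84773169-84773217, minus strand: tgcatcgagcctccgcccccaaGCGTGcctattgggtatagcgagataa
The genes with these letters included Mylip, which was higher in KO, and Abca1, Soat1 and Npc2, which were lower. The 2 RefSeq promoter entries of Nr1h3, the member with the largest difference, held none of these motifs in their windows. They lie inside the gene, whose annotation reaches upstream to chr2:91202834, so its most upstream start was not searched. The 80 bases before the start of the first entry are shown:
Nr1h3, chr2:91195117-91195196, minus strand: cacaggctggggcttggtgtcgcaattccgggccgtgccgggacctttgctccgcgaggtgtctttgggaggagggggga

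Across the route, 7 of the 9 measured members were lower in KO and 2 were higher, and their median change was -0.33. Over all 10297 genes that reached 1 FPKM in either library, the median change was 0.03 and 48.7% of genes were lower. The largest differences were in the receptor Nr1h3 and the exporter Abcg1, and the smallest was in Npc2. At the 3-fold threshold 1 member was lower in KO, Nr1h3, where 13.7% of all genes compared were past 3-fold lower, and no member was higher, where 13.6% were. At 2-fold, Abcg1 also counted as lower, against 22.5% of all genes. A share of 1 in 9 or 2 in 9 is near these backgrounds.

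**Figure D1:**
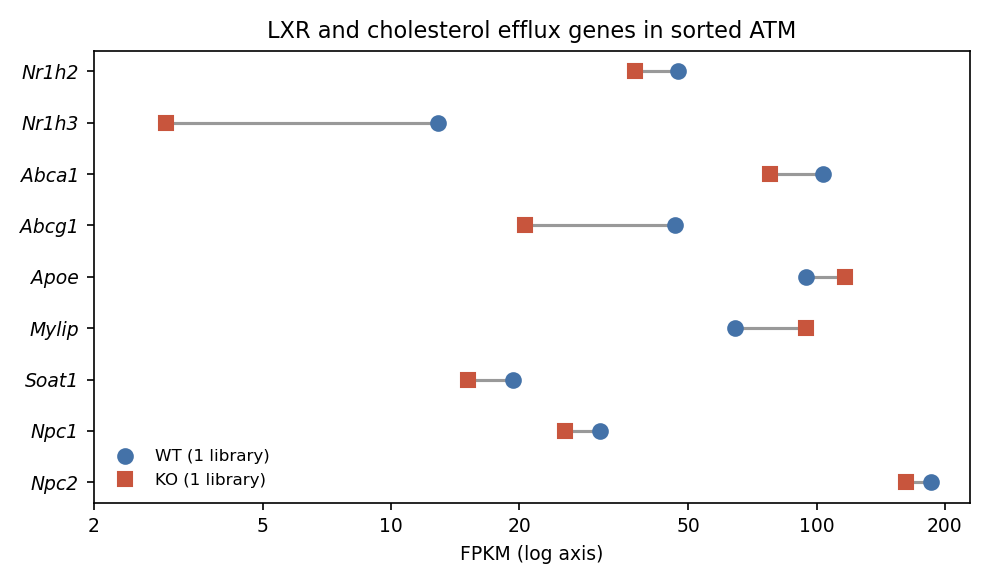
FPKM (log axis) of the 9 measured LXR and cholesterol efflux genes in the WT library (circles) and the KO library (squares), with 1 library per genotype and a line joining the values of a gene. Nr1h3 spans 12.9 to 2.97 FPKM and Abcg1 46.5 to 20.7, whereas Apoe and Mylip are the 2 genes with the KO value on the right.

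The receptors were examined first. Nr1h3 encodes LXRα, the form enriched in macrophages, liver and fat, and lies on GRCm38 at chr2:91184061-91202834 (ENSMUSG00000002108). It gave 12.9 FPKM in the WT library against 2.97 in KO, a change of -1.81 and a 4.34-fold lower value on the plain ratio. The KO value rested on an estimated 37.0 to 43.3 fragments, and the WT value on 126 to 148, depending on which of its 4 coding transcripts is assumed. Genes at this level varied widely between the libraries, and 32.4% of the 1885 genes with a mean of 5 to 10 FPKM were past 3-fold in one direction or the other. Exons of a further gene model, Gm13783, overlap Nr1h3 on the same strand, and it had no row of its own here.

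Nr1h2 encodes LXRβ, the form found in nearly all tissues (ENSMUSG00000060601, chr7:44549616-44553951). It gave 47.3 FPKM in the WT library against 37.5 in KO, a change of -0.33. Nr1h2 was therefore the more abundant receptor transcript in both libraries, 3.67 times Nr1h3 in WT and 12.6 times in KO. Put as a share, Nr1h3 made up 21.4% of the summed FPKM of both receptors in WT and 7.33% in KO. This ratio does not depend on the scaling of the libraries, but it carries the uncertainty of the low Nr1h3 value.

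The exporters were compared next. Abca1, which passes cholesterol and phospholipid to lipid-poor apolipoproteins, was among the more abundant members (ENSMUSG00000015243, chr4:53030787-53159895). Its values of 103.6 and 77.7 FPKM placed it 744th of 20330 genes in WT and 928th in KO. Abcg1, which moves sterols toward HDL particles, lies at chr17:31057675-31117988 (ENSMUSG00000024030). It gave 46.5 FPKM in the WT library against 20.7 in KO, a change of -1.13 and a 2.25-fold lower value. Of the 1711 genes with a mean of 20 to 50 FPKM, 26.8% were past 2-fold and 11.7% past 3-fold. Both exporters were lower in the KO library, Abcg1 by more, and the ratio of Abca1 to Abcg1 was 2.23 in WT and 3.76 in KO.

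**Figure D2:**
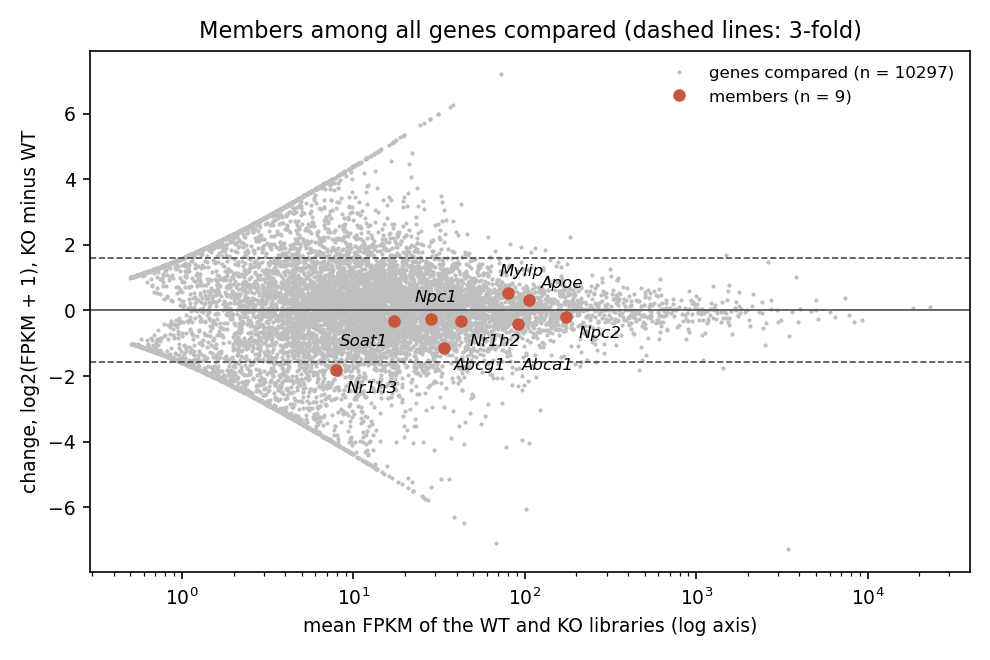
Change on the log2(FPKM + 1) scale, KO minus WT, against the mean FPKM of both libraries (log axis), for the 10297 genes compared (grey) and the 9 members (red), with dashed lines at 3-fold. Nr1h3 is the member beyond the lower line, at -1.81, and lies at the level where 32.4% of genes are past 3-fold.

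Apoe and Mylip were the members with higher values in KO. Apoe encodes apolipoprotein E, which macrophages secrete as an acceptor of exported cholesterol (ENSMUSG00000002985, chr7:19696109-19699188). It gave 94.3 FPKM in the WT library against 116.5 in KO, a change of 0.30, although both genotypes are Apoe knockouts. These values say that fragments were assigned to the gene, not that an intact transcript was made, and exon-level values were not analysed here. Of the 354 genes with a mean of 100 to 200 FPKM, 3.11% were past 3-fold and 9.32% past 2-fold.

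Mylip, also known as IDOL, is an LXR target and a ubiquitin ligase that limits further lipoprotein uptake (ENSMUSG00000038175, chr13:45389742-45412022). It gave 64.3 FPKM in the WT library against 94.3 in KO, a change of 0.55, or 46.6% more. Mylip thus differed in the opposite direction to Abca1 and Abcg1, which are also LXR targets. At a mean of 50 to 100 FPKM, the level of both Mylip and Abca1, 15.7% of 667 genes were past 2-fold and 4.95% past 3-fold, and neither gene was among them.

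Storage and lysosomal release came last, and none of these 3 genes was past 2-fold. Soat1 encodes the acyltransferase that esterifies cholesterol in the endoplasmic reticulum for storage (ENSMUSG00000026600, chr1:156424525-156474331). It gave 19.3 FPKM in the WT library against 15.2 in KO, a change of -0.33, at a level (10 to 20 FPKM) where 20.6% of genes were past 3-fold. Npc1 is the membrane protein that receives cholesterol at the lysosomal membrane (ENSMUSG00000024413, chr18:12189692-12236400), and it gave 31.0 FPKM in the WT library against 25.7 in KO, a change of -0.26. Npc2, the soluble lysosomal protein that hands cholesterol to NPC1, was the highest member in both libraries (ENSMUSG00000021242, chr12:84754562-84773152). It gave 186.3 FPKM in the WT library against 162.7 in KO, a change of -0.19. The ratio of Npc2 to Npc1 was 6.01 in WT and 6.33 in KO, so that this pair kept nearly the same proportion where the receptor and exporter pairs did not. Exons of Rmc1 and Gm15956 overlap Npc1 on the opposite strand, and since the library protocol in the labels names no step that marks strand, their reads cannot be told apart there. Rmc1 itself gave 13.3 FPKM in WT against 26.7 in KO. No exon of another gene overlapped the other 7 measured members.

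By level, the order in WT was Npc2, Abca1, Apoe, Mylip, Nr1h2, Abcg1, Npc1, Soat1 and Nr1h3. In KO it was Npc2, Apoe, Mylip, Abca1, Nr1h2, Npc1, Abcg1, Soat1 and Nr1h3. Npc2 was first and Soat1 and Nr1h3 were last in both. With 1 library each there is no spread by which neighbours in this order could be told apart.

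Other genes of the pathway were then compared in 7 further lists, which together held 98 genes, 81 of them past the filter on low values. Of these 81, 9 were past 3-fold higher and 8 lower in KO, or 20.99% against 27.3% of all genes compared, and their median change was -0.01. The median of the members, on the same scale, was -0.33. The median was -0.54 over 4 other sterol exporters and HDL receptors and -0.28 over 18 genes of lysosomal and intracellular sterol transport. It was 0.12 over 18 other LXR target genes and 0.17 over 15 receptor partners and coregulators.

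**Figure D3:**
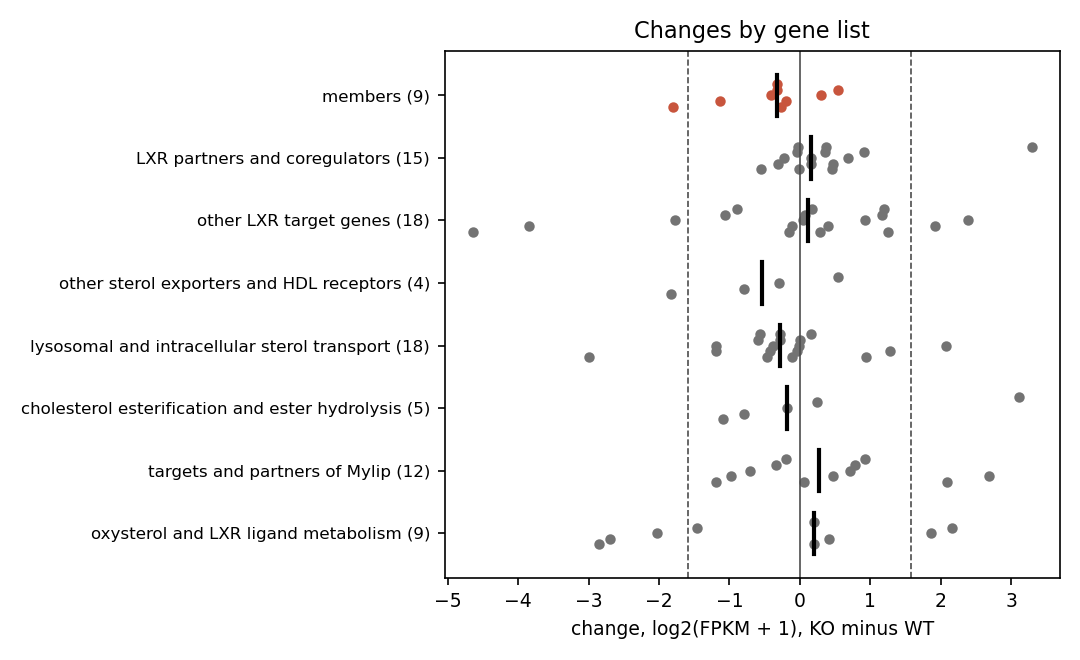
Change on the log2(FPKM + 1) scale, KO minus WT, of each gene past the filter (points) in the members and in 7 further lists, with the list median (black bar), the number of genes in brackets and dashed lines at 3-fold. The member median is at -0.33, and the medians of the other lists lie between -0.54 and 0.27.

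Among receptor partners and coregulators, Gps2, a corepressor subunit, had the highest level, at 86.7 FPKM in WT against 97.4 in KO. The acetyltransferase gene Crebbp was at 41.3 and 46.1. Rxra, the obligate partner of LXR, gave 27.7 FPKM in WT against 18.6 in KO, and Rxrb 7.29 against 14.6. Tbl1x, another corepressor subunit, was the 1 of 15 genes past 3-fold, at 1.19 FPKM in WT against 20.5 in KO. This share was 6.67%, against 27.3% of all genes compared. The changes of the others ran from -0.54 for Rxra to 0.92 for Rxrb.

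Of 18 other LXR targets compared, 2 were past 3-fold higher and 3 lower in KO, or 27.8%, a share near the 27.3% of all genes compared, and 11 had a higher value in KO than in WT. The 3 with the highest mean FPKM were the phospholipid transfer protein Pltp at 975 FPKM in WT against 905 in KO, the lipid droplet coat gene Plin2 at 673 and 707, and Nfkbia, the inhibitor of NF-κB, at 392 and 441. Lpl, the lipoprotein lipase, came next and was lower in KO, at 457 and 219, a change of -1.06. Scd1, the stearoyl-CoA desaturase, was higher in KO, at 3.77 FPKM in WT against 24.1 in KO. Lpcat3, which remodels membrane phospholipids, was lower, at 20.8 and 5.38. Apoc1 (24.0 in WT) and Cd5l (13.4 in WT), a secreted macrophage protein, were listed at 0 in KO, and Apod was listed at 0 in WT and at 2.79 in KO.

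Of 9 genes that make or remove LXR ligands, 2 were past 3-fold higher and 3 lower in KO, or 55.6% against 27.3% of all genes compared. Ch25h, which makes 25-hydroxycholesterol, gave 11.0 FPKM in WT against 52.8 in KO. Cyp27a1, which makes 27-hydroxycholesterol, was the most abundant of the list, at 98.2 and 130.6 FPKM. Hsd3b7, which degrades oxysterols on the way to bile acids, was lower in KO, at 66.1 and 15.5. Among enzymes of the sterol synthesis route, Ebp gave 4.47 FPKM in WT against 18.8 in KO, whereas Lss was at 7.16 and 0.259, and Sqle, at 6.20 in WT, was listed at 0 in KO. Lss and Sqle averaged 2 to 5 FPKM, where 49.0% of genes were past 3-fold.

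Around the members at the lysosome, Lamp1 gave 648 FPKM in WT against 645 in KO, Lamp2 gave 332 against 369, and the acid lipase Lipa, which frees cholesterol from lipoprotein esters, 138 against 128. Stard3, a late endosomal sterol carrier, gave 10.2 FPKM in WT against 46.2 in KO. Tmem97, which binds NPC1, was at 15.7 and 1.11. These were the 2 of 18 genes past 3-fold, or 11.1% against 27.3% of all genes compared. Of the ester cycle around Soat1, Nceh1, which hydrolyses stored ester in macrophages, gave 36.7 FPKM in WT against 20.8 in KO, Pnpla2 gave 84.4 against 74.3, and Lipe, the hormone-sensitive lipase, 16.8 against 20.1. Abhd5, the activator of Pnpla2, was the 1 of 5 genes past 3-fold (20%, against 27.3% of all genes), at 0.848 and 14.97.

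Of the other exporters and receptors, Cd36, a scavenger receptor for oxidised lipoprotein, gave 288 FPKM in WT against 418 in KO. The HDL receptor Scarb1 was at 12.6 and 6.85, and Abca7 at 14.1 and 11.4. Abcg2, a transporter of the same family as Abcg1, was at 10.9 and 2.35. It was the 1 of 4 genes past 3-fold, or 25% against 27.3% of all genes compared. Among the targets and partners of Mylip, the lipoprotein receptor gene Lrp1 gave 111.6 FPKM in WT against 88.2 in KO. The E2 enzymes with which Mylip works gave 2.80 and 15.2 for Ube2d1, 36.7 and 51.3 for Ube2d2a and 113.1 and 98.2 for Ube2d3. Ube2d1 and the deubiquitinase gene Usp2, listed at 0 in WT and at 5.45 in KO, were the 2 of 12 genes of this list past 3-fold. This share was 16.7%, against 27.3% of all genes compared. Rxra, Rxrb, Srebf1, Fasn and Lpl were named after their values were seen.

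The cells carried the markers for which they had been sorted. All 12 macrophage markers with a row were above the filter, none was past 3-fold, and their summed FPKM was 16675 in WT and 15996 in KO. At 2-fold, the threshold at which Abcg1 counted, 2 of the 12 were lower in KO, Aif1 (205 and 79.3 FPKM, a change of -1.36) and Fcgr1 (49.3 and 21.9, a change of -1.14), and 1 was higher, Mertk (38.0 and 88.1, a change of 1.19). Neutrophil markers differed between the libraries, since 8 of the 13 passed the filter and all 8 had more in KO, the list's summed FPKM being 159 in WT and 533 in KO. S100a8 and S100a9 made up most of it, while Camp, Ltf, Elane and Mmp8 were listed at 0 in both libraries. The adipocyte-defining genes Adipoq and Plin1 were listed at 0 in both, and the summed FPKM of 9 adipocyte markers was 95.9 in WT and 100.1 in KO. Fabp4 made up 90.1 and 91.4 of these sums. Of the other adipocyte markers, Cfd and Lep were listed at 0 in WT and at 7.11 and 1.60 in KO. Cidec was at 5.83 in WT and listed at 0 in KO. The summed FPKM of fibroblast markers was 52.2 in WT and 95.6 in KO. The remaining sums in WT and KO were 6.50 and 33.1 for eosinophils, 16.6 and 16.1 for endothelium, and 0 and 7.84 for mesothelium. They were 5.35 and 2.07 for T cells, 2.75 and 6.46 for B cells, and 125 and 140 for dendritic cells. Of the dendritic cell sums, Cd209a made up 122 and 131. The eosinophil sums were Alox15, at 6.50 and 25.7, and Ccr3, listed at 0 in WT and at 7.45 in KO. Siglecf, Epx, Prg2, Ear1 and Il5ra were listed at 0 in both libraries. Of the B cell markers, Cd79a was at 2.50 and 0.222, whereas Cd79b was listed at 0 in WT and at 5.52 in KO. The mesothelial sum was Upk3b alone and the T cell sum Cd4 alone. The other markers of these lists with a row were at 0 in both libraries. The part of other cell types in the values of the members was not tested.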

How the data were processed

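ATM of WT and KO mice gave 1 poly(A) library each, amplified for 18 PCR cycles per the labels. The submitters' processing notes name CASAVA 1.8.2, TopHat2 2.0.9, Cufflinks 2.2.1 and the mouse build mm9. The annotation and filters are not given in the sources used here. The authors deposited FPKM values, which are divided by transcript length and by mapped fragments, so no count model was used. Its column labelled as mutant was read as KO, since the only other sample is WT.

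The table had 20749 rows, of which 401 full repeats were dropped and 18 further rows of an identifier were summed, leaving 20330 genes. Symbols were found for 20035 in GENCODE M21 (98.5%). Gene positions and transcript lengths come from this annotation of GRCm38 and promoters from RefSeq on GRCm38.p6, not from mm9. Genes that reached 1 FPKM in either library were compared with a pseudocount of 1, which understates changes of low genes. The fold rule was run on a copy of WT values with planted changes and no noise, and the motif search on a planted element. These runs check the code only, and do not show how the fold rule performs between single libraries. Depth was taken from the smallest recurring FPKM x kb in genes with a single transcript, 0.170 in WT (19 genes within 12%, 2 below) and 0.134 in KO (20 genes). Fragment numbers cover counting error only, since PCR copies are not independent molecules.

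The members and gene lists were chosen with earlier results of these data known. Genes named beyond the members were those past 3-fold that reached 1 FPKM in each library and the 3 highest of each list, except where said, and genes listed at 0 in a library or under 1 that passed 3-fold were added. Values of 2 genes of the further lists are not reported here. The alternatives were pseudocounts of 0.1 and 0.01, no filter, 2 stricter filters, 2 scalings, the largest value per identifier, a 2-fold threshold and the plain ratio. Analyses used Python 3.11.15 with pandas 2.3.3.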

Additional observations from a re-analysis of the deposited data

How the results depend on the processing

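The changes of the 9 members were recomputed 72 times. All 72 lay within 1.5-fold of the reported value, an allowance used because no replicate spread exists. Much of this was fixed in advance, since a filter cannot alter the change of a gene that passes it. Taking the largest value per identifier left all 9 unchanged. No direction differed, but no pseudocount can reverse one, and the scaling shifts were smaller than the smallest change, -0.19 for Npc2. The change of Nr1h3 ran from -2.11 to -1.76, that of Abcg1 from -1.17 to -1.07 and that of Mylip from 0.55 to 0.61. The member median ran from -0.33 to -0.26. Scaling both libraries to the same sum or upper quartile multiplied KO FPKM by 1.03 or 1.05, a shift of 0.04 or 0.07 on the plain log2 scale and of less on the log2(FPKM + 1) scale.

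With a 2-fold threshold 2 members were lower in KO, and over all genes 2380 were higher and 2314 lower. When both libraries had to reach 1 FPKM, 429 genes were higher and 447 lower, and when the mean had to reach 5 FPKM these were 598 and 646, since fewer low genes are then tested. The other recomputed counts and list medians lay within the allowance, 105 of 112 in all. The median of the ester cycle list, over 5 genes, ran from -0.49 to 0.05, and that of the other exporters from -0.60 to 0.00. No paired analysis was possible because WT and KO are single libraries. Precision at the level of Nr1h3 is limited, as 32.4% of genes averaging 5 to 10 FPKM were past 3-fold.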

Other observations

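The genes beside Apoe on chromosome 7 were also read, since the members Apoe and Apoc2 belong to one cluster and both genotypes carry the Apoe knockout. The protein-coding neighbours in RefSeq order are Apoc4 and Apoc1 on one side and Tomm40 and Nectin2 on the other. Tomm40, a subunit of the mitochondrial import pore, gave 14.3 FPKM in WT against 22.05 in KO, a change of 0.59. Apoc1 was at 24.0 FPKM in WT and listed at 0 in KO, whereas Nectin2, an adhesion molecule, was listed at 0 in WT and at 8.23 in KO. Apoc4, a liver apolipoprotein, was listed at 0 in both. Neighbouring genes of this cluster therefore did not differ in one direction between the libraries.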
